A study of Mus musculus with 9 samples.

Results

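The p53 target genes described here are 40 mouse genes that are listed as transcriptional targets of p53, the protein of Trp53, and that were taken by their gene symbols. Of these, 38 were measured among the 19940 genes with a named probe set, each by 1 probe set. Bax and Gdf15 have no entry in the probe annotation used and were not analysed here. Each value is a normalized intensity on the linear scale from the GeneChip Gene 1.0 ST Array, and levels are compared between cell lines for the same gene only. RNA came from 3 mouse cell lines with 3 arrays each. P19 is an embryonal carcinoma (EC) cell line, from a tumour with pluripotent cells. P19 NTES7 is a pluripotent stem cell line that was derived from P19 by nuclear transfer into eggs and outgrowth of a cloned blastocyst. The sample labels name it only as pluripotent stem cells from P19, and its name comes from the array tables of the study. R1 is a normal embryonic stem (ES) cell line. All 3 lines were grown in the same ES medium with serum and leukemia inhibitory factor and with daily changes of medium, and no agent was added to any line. P19 NTES7 and R1 are routinely kept on mouse embryonic fibroblasts, the feeder cells, that were treated with mitomycin C. For RNA, the study describes the collected ES cells as feeder free. P19 NTES7 stands for 1 cloned line and R1 for 1 ES cell line. The labels speak of biological repeats without naming separate cultures, so a p-value here measures no more than the spread among the 9 arrays.

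p53 is a transcription factor that accumulates after DNA damage and other stress and binds DNA as a tetramer, at a pair of similar short half-sites. Its targets stop the cell cycle, start cell death, take part in DNA repair or adjust metabolism, while Mdm2 and Mdm4 hold p53 itself down. p53 is also known as a brake on the reprogramming of other cells to pluripotency and, in pluripotent cells, as a guard of the genome.

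The promoter table of RefSeq (build GRCm38.p6) holds a window for 32 of the 40 genes, from 250 bases before to 50 bases after the start of transcription. An exact p53 half-site, searched by its name on both strands, was found in the window of 10 of these 32 genes (31.2%), against 9.55% of 27025 genes in the table. The half-sites of these 10 genes follow with 10 bases on each side. The capitals mark the half-site, and the strand is that of the gene.
Ccng1, chr11:40755452-40755481, minus strand: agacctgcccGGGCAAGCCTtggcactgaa
Gadd45a, chr6:67037428-67037457, minus strand: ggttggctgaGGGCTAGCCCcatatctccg
Gtse1, chr15:85859945-85859974, plus strand: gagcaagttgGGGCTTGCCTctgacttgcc
Ckap2, chr8:22186003-22186032, minus strand: ctgtgtctgaAGACATGTCCtgacttgtca
Pml, chr9:58249911-58249940, minus strand: cccgcatgccGGGCTTGTTTacttgcttgt
Aen, chr7:78895927-78895956, plus strand: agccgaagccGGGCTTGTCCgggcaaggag
Ei24, chr9:36797325-36797354, minus strand: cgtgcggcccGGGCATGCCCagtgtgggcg
Polk, chr13:96519399-96519428, minus strand: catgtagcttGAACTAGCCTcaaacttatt
Sesn1, chr10:41887256-41887285, plus strand: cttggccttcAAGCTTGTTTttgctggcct
Bax, chr7:45467080-45467109, minus strand: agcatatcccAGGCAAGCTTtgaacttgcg

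The Ei24 half-site ended 1 base before the listed start, the Gadd45a half-site 31 bases and the Ccng1 half-site 176 bases before it. Of the half-sites, that of Gtse1 lies 10 to 19 bases into the transcript. The Aen half-site falls in the windows of 2 listed starts, ending 112 bases before one and beginning 11 bases after the other. The longer context of the Ccng1 half-site is shown because Ccng1 is a long-known p53 target and was called in both comparisons with R1. It covers the 200 bases of the promoter window farthest upstream of the start, chr11:40755337-40755536, minus strand, with the half-site in capitals. This stretch ends upstream of the start and does not reach it.
Ccng1 promoter: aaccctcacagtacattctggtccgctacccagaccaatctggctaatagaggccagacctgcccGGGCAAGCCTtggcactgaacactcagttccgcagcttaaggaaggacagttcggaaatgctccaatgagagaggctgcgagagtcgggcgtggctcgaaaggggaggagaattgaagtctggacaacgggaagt

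No window of the 32 genes held 2 exact half-sites with a gap of at most 13 bases, an arrangement found in 0.074% of all genes. The letters TTTGAA, known as the cell cycle homology region of genes that are silenced outside division, were in 5 of the 32 windows (15.6%), against 20.2% of all genes. A match describes the letters only, and p53 sites that lie in first introns or farther upstream are outside these windows.

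The lines shared some defining pluripotency genes and not others. Pou5f1 had a mean of 2196 ± 109 for P19, 1471 ± 199 for P19 NTES7 and 1470.1 ± 153 for R1, and Sox2 of 665 ± 68.4 for P19, 542 ± 4.37 for P19 NTES7 and 884 ± 43.5 for R1 (SD, n = 3 each), while Nanog had 178 ± 15.6 for P19, 627 ± 11.4 for P19 NTES7 and 913 ± 59.4 for R1. Of 12 such markers, all measured, 5 were called higher in R1 than in P19 (Nanog, Zfp42, Dppa5a, Esrrb and Fgf4), and 5 lower in P19 NTES7 compared with R1 (Zfp42, Utf1, Dppa5a, Esrrb and Fgf4). Esrrb, with 9.26 ± 1.25 for P19, 32.4 ± 2.48 for P19 NTES7 and 229.8 ± 10.6 for R1, was below the median of all probe sets in P19, and Utf1 was called lower in P19 NTES7 than in both other lines, with 471 ± 70.4 for P19, 73.5 ± 20.3 for P19 NTES7 and 584 ± 79.1 for R1. The median intensity of an array lay between 16.5 and 17.5. R1 replicate 3 stood apart from the other R1 arrays, with a median absolute log2 difference of 0.187 and 0.174 from replicates 1 and 2, which differed from each other by 0.0703. It was the highest R1 array for 26 of the 38 genes, and over 1.5-fold from both other R1 arrays for 4 (Plk2, Btg2, Gadd45g and Ephx1). P19 replicate 3 was over 1.5-fold from both other P19 arrays for 3 genes (Ccng2, Gadd45b and Ddit4). The differences that these arrays move most are also given without them.

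The study compared these lines to ask which transcripts of EC cells are restored when their nuclei pass through an egg. The p53 target genes were mostly higher in R1 than in P19, and P19 NTES7 lay nearer to P19. A gene was called where its limma adjusted p, over all 28853 probe sets, was under 0.01 and its fold was over 2. In R1 against P19, 18 of the 38 genes were called higher and 2 lower, where the shares of all genes were 3.86% and 3.46%. In P19 NTES7 against P19, 5 were called higher and 1 lower, against 1.45% and 1.38% of all genes. In P19 NTES7 against R1, 1 was called higher and 17 lower, against 1.68% and 2.85%. The median log2 difference of the 38 genes was 0.97 for R1 against P19, 0.22 for P19 NTES7 against P19 and -0.88 for P19 NTES7 against R1. The median of all genes was 0.02 for R1 against P19. Because the 3 comparisons share arrays, they are set side by side and are not independent of each other. Of the 11693 genes with a mean within the range of the 38, 6.22% were called higher and 5.58% lower in R1 against P19, 2.38% and 2.24% in P19 NTES7 against P19, and 2.69% and 4.58% in P19 NTES7 against R1. In P19, 8 of the 38 genes had a mean below the median of all probe sets (16.9). The table holds no detection calls, and a fold against such a low value is not exact.

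**Figure D1:**
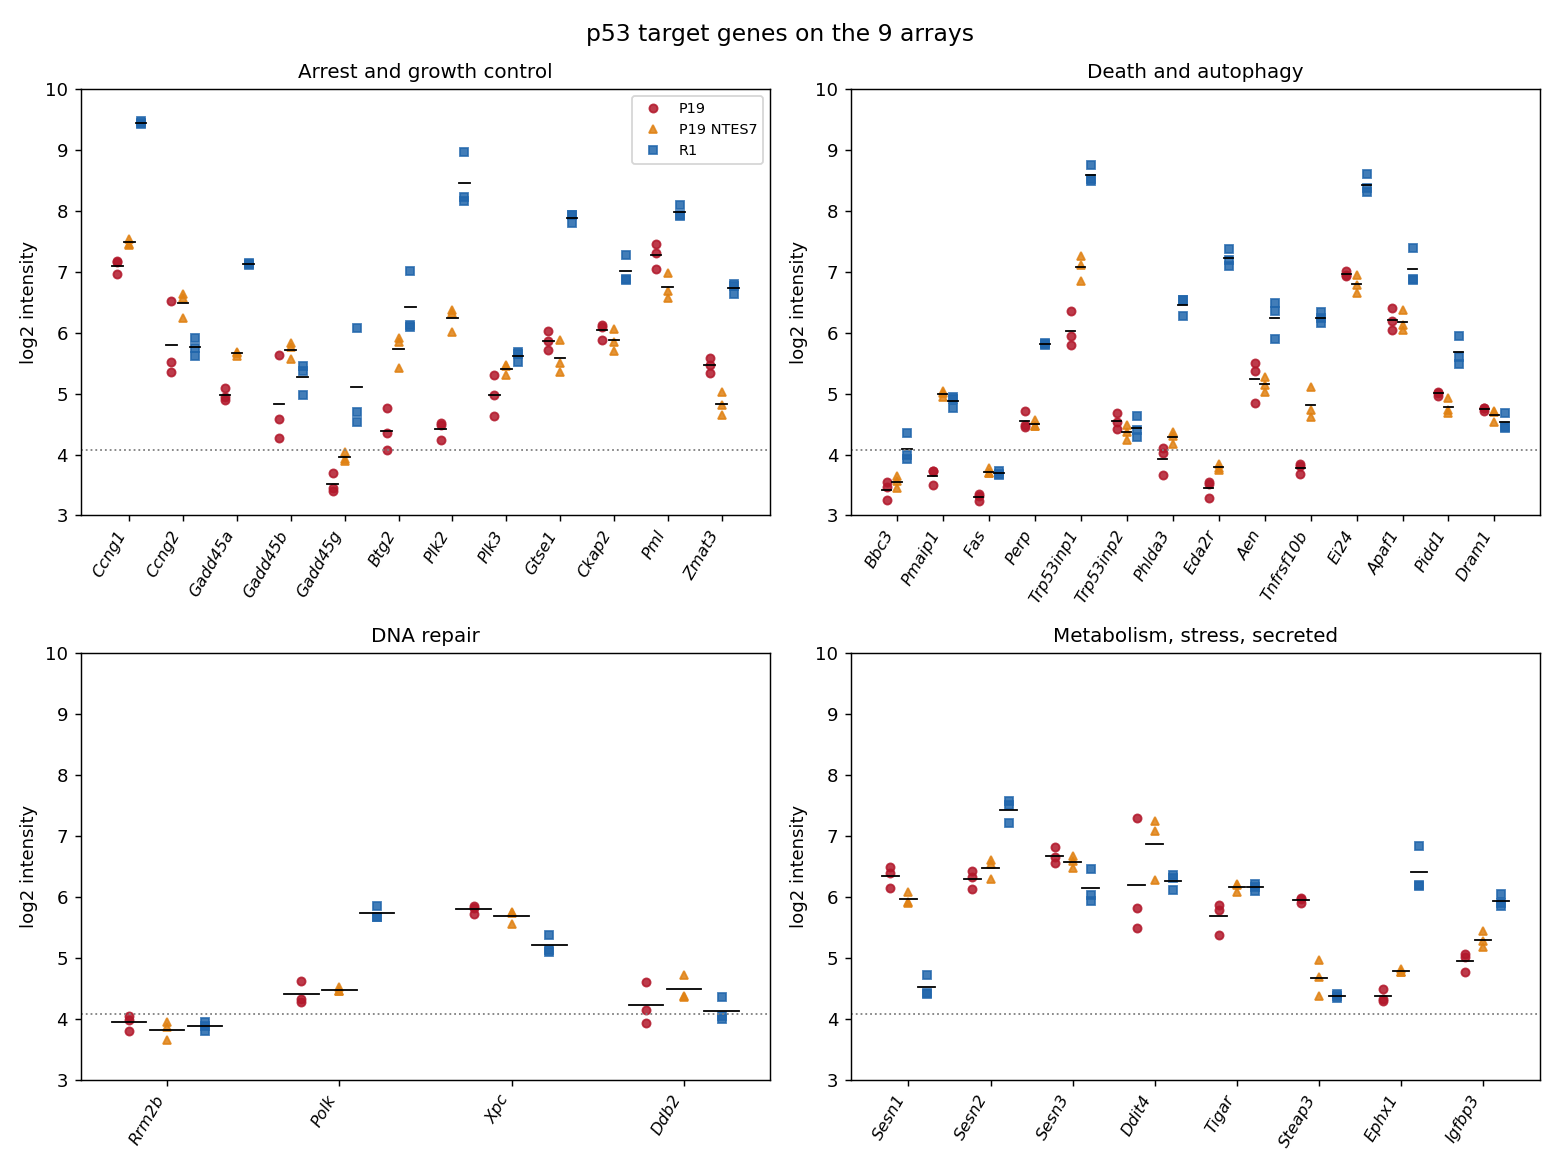
Log2 intensity (y axis) of the 38 measured p53 target genes (x axis), grouped by role, with 1 point for each of the 3 arrays of P19 (circles), P19 NTES7 (triangles) and R1 (squares). Short bars are means of the 3 log2 values, and the dotted line is the median of all probe sets. Most genes of arrest and death have R1 on top with P19 NTES7 close to P19, whereas Sesn1 and Steap3 are turned the other way.

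Genes whose arrays did not overlap between lines were also counted. The 3 R1 arrays lay above the 3 P19 arrays for 27 of the 38 genes and below them for 5, where 22.5% of all genes were above and 24.8% below. The 3 P19 NTES7 arrays lay above those of P19 for 15 genes and below for 5, against 17.3% and 19% of all genes. They lay below those of R1 for 24 genes and above for 7, against 18.6% and 20.4%. Of the 20 genes called in R1 against P19, P19 NTES7 had a mean log2 level nearer to P19 for 17 and nearer to R1 for 3, namely Btg2, Pmaip1 and Steap3. Over all genes called in that comparison, 930 of 1459 (63.7%) were nearer to P19. Without R1 replicate 3 the counts of called genes were 18 higher and 2 lower for R1 against P19, 5 and 1 for P19 NTES7 against P19, and 1 and 17 for P19 NTES7 against R1, where Gadd45g left and Sesn2 joined the lower genes. Without P19 replicate 3, 17 genes were called higher in R1 than in P19, and 8 higher in P19 NTES7 compared with P19.

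**Figure D2:**
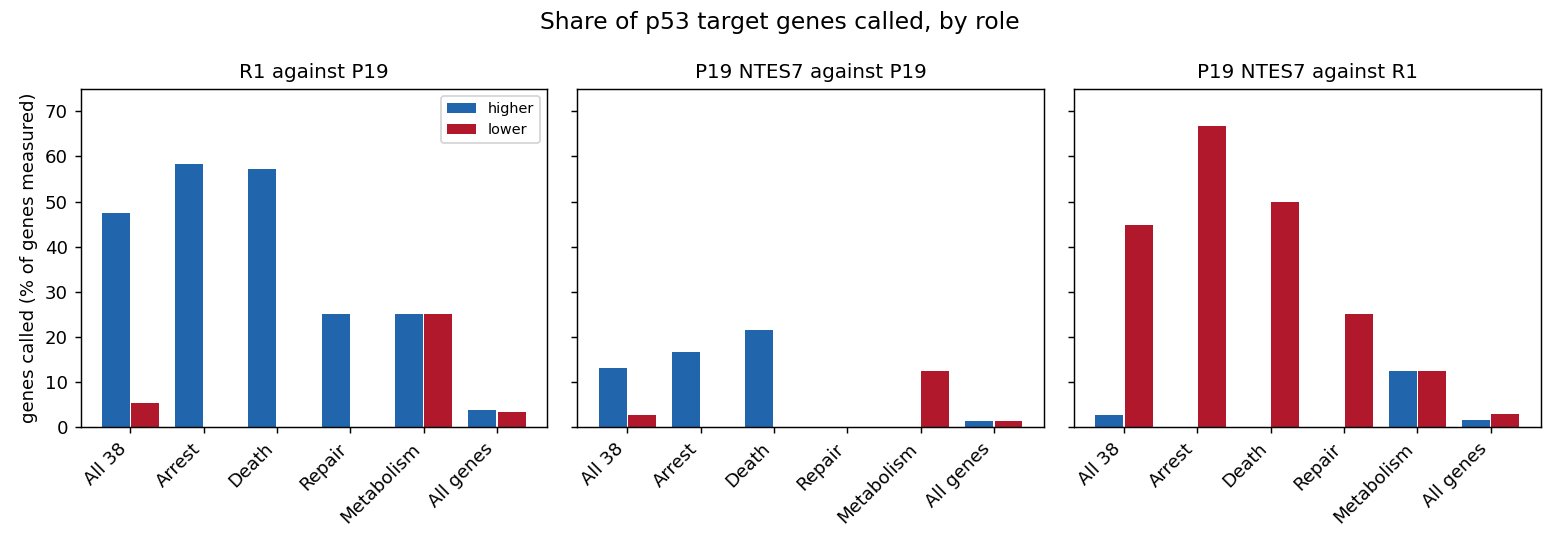
Share of measured genes called higher (blue) or lower (red), in percent of the genes measured, for the 38 p53 target genes, for each role (12 arrest, 14 death, 4 repair and 8 metabolism genes) and for all 19940 genes, in each of the 3 comparisons. In R1 against P19, 58.3% of arrest and 57.1% of death genes are called higher, against 25% of repair and 25% of metabolism genes. A further 25% of metabolism genes are called lower there. The repair and metabolism groups are small, and no difference between roles was tested. Few genes of any role are called in P19 NTES7 against P19.

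Genes grouped here under arrest and growth control were often higher in R1. The group also holds Gtse1 and Ckap2, which are genes of microtubules and the mitotic spindle. Of 12 measured, 7 were called higher in R1 than in P19, 2 were called higher in P19 NTES7 compared with P19 (Plk2 and Btg2), and 8 were called lower in P19 NTES7 compared with R1. None was called lower in R1 than in P19, and at an unadjusted limma p under 0.05 the count was also 0, against 23.2% of all genes. The median log2 difference of the group was 1.42 for R1 against P19 and -1.20 for P19 NTES7 against R1. Plk2, a polo-like kinase of centriole duplication and the DNA damage checkpoint, had intensities of 22.3, 22.98 and 18.9 on the P19 arrays, 82.8, 79.7 and 64.4 on those of P19 NTES7, and 285, 300.4 and 497 on those of R1. The lines did not overlap, and P19 NTES7 lay between the others. Plk2 was 16.4-fold higher in R1 than in P19 (log2 4.03 ± 0.18, SE, adjusted p = 1.69e-09), 3.53-fold higher in P19 NTES7 compared with P19 (adjusted p = 1.24e-05) and 4.64-fold lower in P19 NTES7 compared with R1 (adjusted p = 1.11e-06). Its R1 replicate 3 stood above the other R1 arrays, and without that array the log2 difference was 3.78 for R1 against P19 and -1.96 for P19 NTES7 against R1. Btg2, an antiproliferative partner of the mRNA deadenylase complex, gave 16.9, 20.3 and 27.1 on the P19 arrays, 57.8, 42.9 and 60.1 on those of P19 NTES7, and 69.9, 68.2 and 129.6 on those of R1. Both pluripotent stem cell lines lay above P19 on every array. The log2 difference was 2.02 ± 0.23 for R1 and 1.33 ± 0.23 for P19 NTES7 against P19 (adjusted p = 1.39e-05 and 0.00118), and that of R1 was 1.72 without R1 replicate 3. Btg2 did not reach the call between P19 NTES7 and R1 (log2 -0.68 ± 0.23, 95% interval -1.19 to -0.18) and was at -0.38 there without R1 replicate 3.

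Of the cyclin G and Gadd45 genes, 3 were called higher in R1 than in P19 and none in P19 NTES7 against P19. Ccng1, the gene of cyclin G1, which recruits a phosphatase to Mdm2, read 142, 145 and 124 on the P19 arrays, 187, 174 and 175 on those of P19 NTES7, and 691, 690.3 and 710.4 on those of R1. The R1 arrays were tightly grouped and far above the rest. Ccng1 was 5.10-fold higher in R1 than in P19 (adjusted p = 5.10e-10) and 3.91-fold lower in P19 NTES7 compared with R1 (adjusted p = 5.36e-09), whereas P19 NTES7 against P19 gave log2 0.38 ± 0.094 and was not called (adjusted p = 0.0111). Gadd45a, a damage-induced protein that inhibits Cdk1 and binds PCNA, had intensities of 34.2, 29.8 and 30.6 on the P19 arrays, 51.6, 50.8 and 49.3 on those of P19 NTES7, and 141, 139.8 and 138 on those of R1. All 3 lines were apart, in the order P19, P19 NTES7 and R1. R1 exceeded P19 by log2 2.15 ± 0.091 (adjusted p = 8.85e-10) and P19 NTES7 fell short of R1 by 2.76-fold (adjusted p = 6.87e-08). P19 NTES7 exceeded P19 by 1.60-fold, under the fold limit (adjusted p = 0.000136). Gadd45g, of the same family, was low, at 13.04, 10.9 and 10.5 on the P19 arrays, 16.4, 14.9 and 15.2 on those of P19 NTES7, and 26.1, 23.1 and 67.4 on those of R1. A single array, R1 replicate 3, was well above all others. The log2 difference of R1 from P19 was 1.59 ± 0.29 (adjusted p = 0.000718), and 1.10 without that array. In a one-way test of the 3 lines, as in the methods of the study, this call was lost (unadjusted p = 0.0197, limit 0.01). Against R1, P19 NTES7 was called lower (log2 -1.15 ± 0.29, adjusted p = 0.00914), but without R1 replicate 3 the difference was -0.67, under the fold limit, and without any 1 array of P19 or P19 NTES7 the adjusted p lay between 0.0124 and 0.0365. Ccng2 and Gadd45b turned on P19 replicate 3. Ccng2, the gene of cyclin G2, had means of 59.6 ± 28.2 for P19, 89.9 ± 12.5 for P19 NTES7 and 54.4 ± 5.59 for R1, and Gadd45b of 30.9 ± 16.3 for P19, 52.8 ± 4.69 for P19 NTES7 and 38.9 ± 6.60 for R1 (SD, n = 3). In P19, Ccng2 was 40.7, 45.9 and 92.04 and Gadd45b was 19.2, 23.9 and 49.6, so that replicate 3 reached or approached the level of P19 NTES7. Neither was called on all arrays, and without P19 replicate 3 both were called higher in P19 NTES7 compared with P19 (log2 1.05 and 1.30).

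Gtse1, Zmat3, Pml and Ckap2, genes of the spindle and the nucleus, were called lower in P19 NTES7 against R1. Gtse1, a microtubule protein of G2 that binds p53 and moves it out of the nucleus, had intensities of 58.1, 65.1 and 52.3 on the P19 arrays, 58.9, 45.5 and 40.8 on those of P19 NTES7, and 244, 223 and 243 on those of R1. P19 and P19 NTES7 overlapped, and the lowest R1 array was above every other array. Gtse1 was 4.06-fold higher in R1 than in P19 and 4.95-fold lower in P19 NTES7 compared with R1 (adjusted p = 6.21e-08 and 3.32e-08). Zmat3, a zinc finger protein that binds RNA, read 47.9, 44.5 and 40.7 on the P19 arrays, 32.6, 24.97 and 28.2 on those of P19 NTES7, and 109, 111 and 99.1 on those of R1. Here the order was P19 NTES7, P19 and R1, with no overlap. R1 was higher than P19 by log2 1.26 ± 0.11 (adjusted p = 1.38e-06), P19 NTES7 was lower than R1 by 3.73-fold (adjusted p = 4.94e-08), and its difference from P19 of log2 -0.64 ± 0.11 stayed under the fold limit (adjusted p = 0.00141). Pml, the scaffold of the nuclear bodies named after it, gave 159, 175 and 131 on the P19 arrays, 126, 103 and 94.7 on those of P19 NTES7, and 240.3, 245 and 274 on those of R1. The same order held, with smaller distances. Only P19 NTES7 against R1 was called (log2 -1.24 ± 0.13, adjusted p = 1.12e-05), and R1 against P19 was log2 0.71 ± 0.13. Ckap2, a protein of the mitotic spindle, read 69.9, 68.3 and 59.1 on the P19 arrays, 52.2, 66.8 and 57.6 on those of P19 NTES7, and 118, 116 and 154 on those of R1. P19 and P19 NTES7 overlapped, and R1 lay above both. P19 NTES7 was called lower than R1 (log2 -1.13 ± 0.13, adjusted p = 2.46e-05), while R1 against P19 was 1.96-fold, just under the limit, and was called without P19 replicate 1 (log2 1.015), R1 replicate 1 (1.03) or R1 replicate 2 (1.04). Plk3, a stress-responsive polo-like kinase, had means of 31.9 ± 7.36 for P19, 42.6 ± 2.60 for P19 NTES7 and 49.1 ± 2.84 for R1 (SD, n = 3) and was not called, with log2 0.64 ± 0.14 for R1 against P19 (95% interval 0.34 to 0.95).

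**Figure D3:**
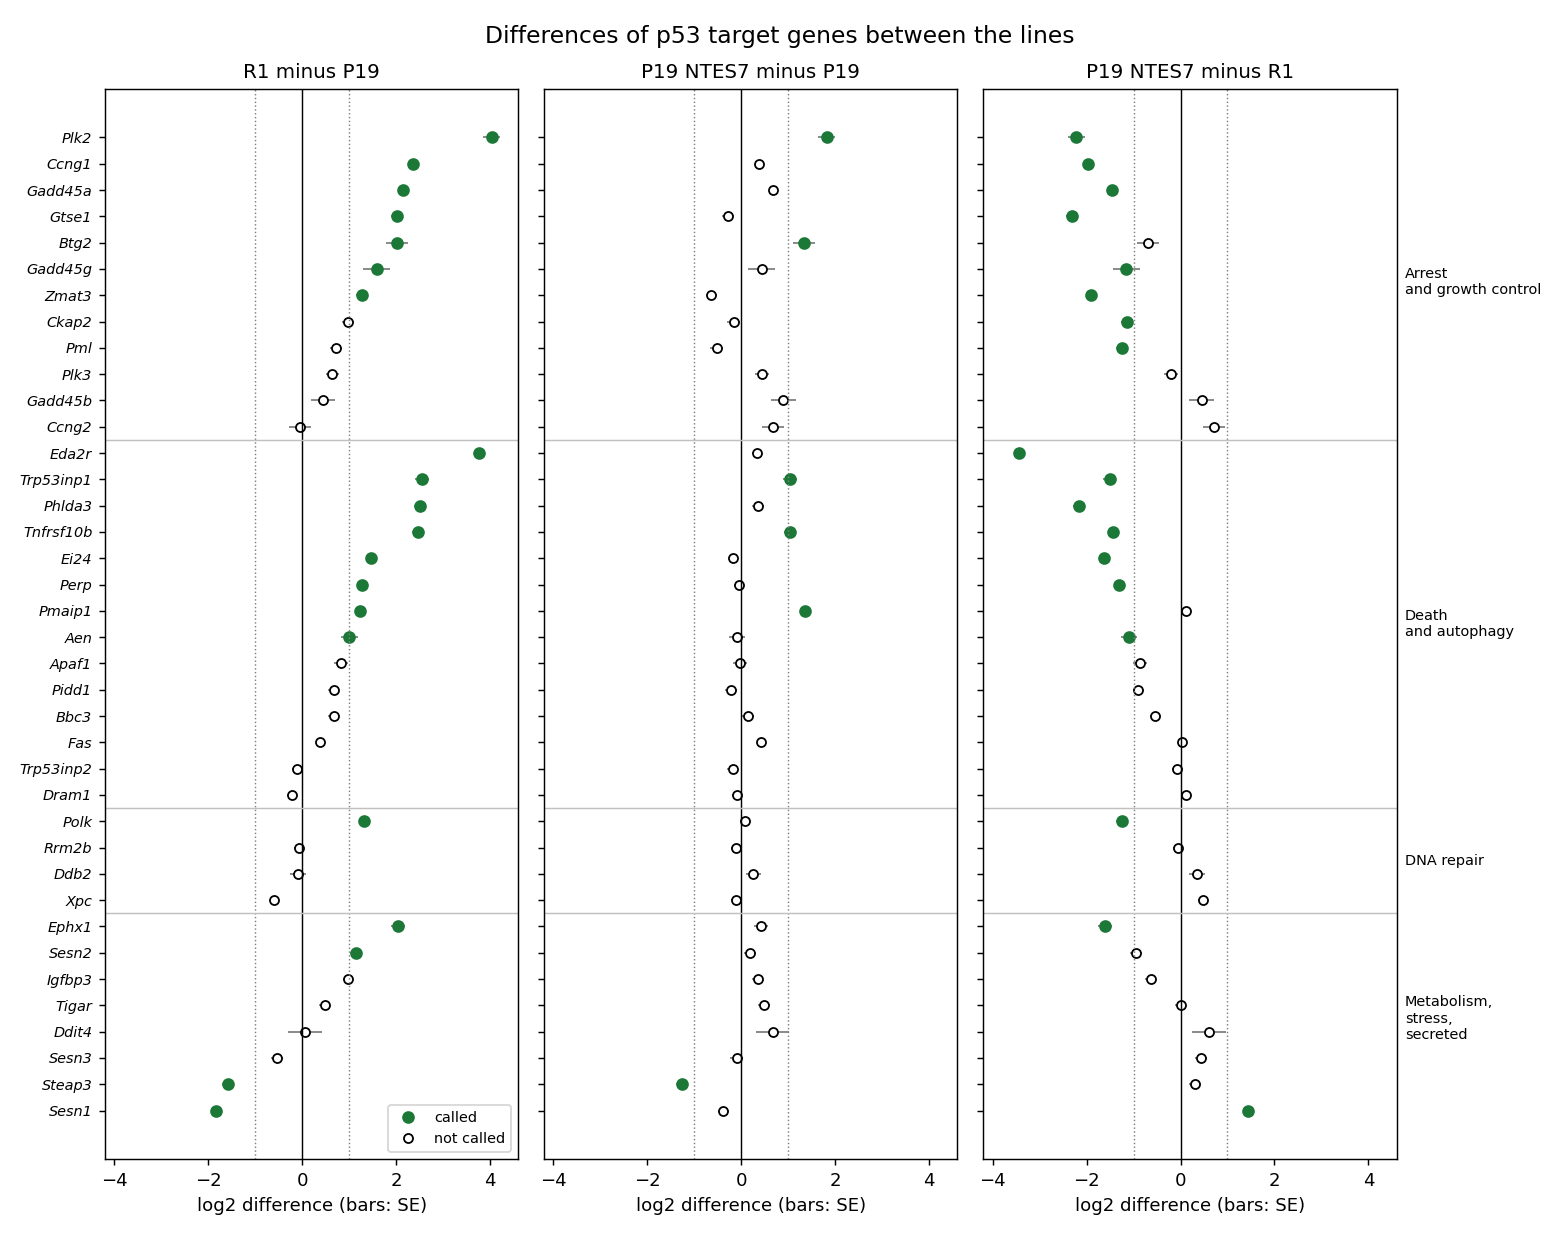
Log2 difference (x axis, dots, with standard errors from limma as bars) of each of the 38 p53 target genes (y axis, grouped by role and ordered by the difference of R1 from P19) in the 3 comparisons. Filled dots are called genes, and dotted lines mark a fold of 2. Plk2 and Eda2r have the widest differences of R1 from P19 (log2 4.03 and 3.77), and Eda2r is not called in P19 NTES7 against P19 (log2 0.34).

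Genes of cell death and autophagy were likewise often higher in R1. Of 14 measured, 8 were called higher in R1 than in P19 and 0 lower, with 12 higher and 1 lower at an unadjusted limma p under 0.05, where 20.2% and 23.2% of all genes were. In P19 NTES7 against P19, 3 were called higher (Pmaip1, Trp53inp1 and Tnfrsf10b), and in P19 NTES7 against R1, 7 were called lower. The median log2 difference was 1.11 for R1 against P19 and 0.05 for P19 NTES7 against P19. Eda2r, a receptor of the tumour necrosis factor family for ectodysplasin A2, had intensities of 11.7, 11.4 and 9.74 on the P19 arrays, 13.7, 14.3 and 13.4 on those of P19 NTES7, and 146, 136 and 166 on those of R1. P19 and P19 NTES7 were both below the median of all probe sets, and R1 stood far above. Eda2r was 13.6-fold higher in R1 than in P19 (log2 3.77 ± 0.11, adjusted p = 3.35e-11) and 10.8-fold lower in P19 NTES7 compared with R1 (adjusted p = 1.44e-10). Tnfrsf10b, the mouse receptor of the death ligand TRAIL, gave 12.8, 14.03 and 14.4 on the P19 arrays, 34.3, 24.5 and 26.7 on those of P19 NTES7, and 75.5, 71.2 and 80.9 on those of R1. The lines did not overlap and P19 NTES7 lay between. It was 5.52-fold higher in R1 than in P19, 2.69-fold lower in P19 NTES7 compared with R1 (adjusted p = 4.80e-09 and 1.74e-06), and just past the limit in P19 NTES7 against P19 (2.05-fold, adjusted p = 5.02e-05). Without P19 NTES7 replicate 1 this last difference was log2 0.90, and without P19 replicate 1 it was 0.99, both under the fold limit. Fas, another death receptor, is among the 3 uncalled genes below the median of all probe sets in at least 1 line, with Bbc3 (the gene of PUMA) and Rrm2b. On the 9 arrays Fas ranged from 9.43 to 13.7, Bbc3 from 9.48 to 20.3 and Rrm2b from 12.6 to 16.6. At these low levels, Bbc3 was above P19 on every R1 array (log2 0.67 ± 0.13), under the fold limit. Fas was above P19 on every array of R1 and P19 NTES7 (log2 0.39 ± 0.088 and 0.42 ± 0.088), also under it.

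Pmaip1 and Trp53inp1 were called higher than P19 in both pluripotent stem cell lines. Pmaip1, the gene of the BH3-only protein Noxa, had intensities of 13.2, 11.3 and 13.2 on the P19 arrays, 30.8, 32.3 and 32.9 on those of P19 NTES7, and 27.1, 30.7 and 30.2 on those of R1. The P19 NTES7 arrays were slightly above those of R1, and both lay clear of P19. Pmaip1 was 2.55-fold higher in P19 NTES7 and 2.33-fold higher in R1 than in P19 (adjusted p = 7.15e-07 and 4.85e-07), and P19 NTES7 and R1 differed by log2 0.13 ± 0.10 (95% interval -0.089 to 0.34). Trp53inp1, a nuclear protein that promotes autophagy and death under stress, read 55.6, 61.2 and 81.6 on the P19 arrays, 138, 115 and 153 on those of P19 NTES7, and 357, 368 and 429.6 on those of R1. P19 NTES7 lay between the others without overlap. R1 was higher than P19 by log2 2.56 ± 0.15 (adjusted p = 1.78e-08) and P19 NTES7 was lower than R1 by 2.85-fold (adjusted p = 5.51e-06). P19 NTES7 against P19 was 2.06-fold (adjusted p = 0.000224), and fell under the fold limit without P19 replicate 1 (log2 0.93), P19 replicate 2 (0.998) or P19 NTES7 replicate 3 (0.95). Trp53inp2, its relative in autophagy, had means of 23.4 ± 2.15 for P19, 20.7 ± 1.76 for P19 NTES7 and 21.8 ± 2.70 for R1 (SD, n = 3), with overlapping arrays throughout. Phlda3, a small protein that competes with Akt for the membrane, gave 16.3, 17.3 and 12.7 on the P19 arrays, 20.7, 19.8 and 17.98 on those of P19 NTES7, and 93.1, 93.02 and 77.1 on those of R1. R1 was far above the other lines, which lay close to the median of all probe sets. The difference of R1 from P19 was log2 2.52 ± 0.13, that of P19 NTES7 from R1 was -2.17 ± 0.13 (adjusted p = 5.50e-09 and 4.08e-08), and P19 NTES7 against P19 was not called (log2 0.35 ± 0.13).

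Ei24, Perp and Aen were higher in R1, while P19 NTES7 overlapped P19. Ei24, a membrane protein of the endoplasmic reticulum needed for autophagy, had intensities of 124, 122 and 129 on the P19 arrays, 123, 110.4 and 99.97 on those of P19 NTES7, and 317, 330.1 and 388 on those of R1. The R1 arrays lay above the other 6. Ei24 was 2.75-fold higher in R1 than in P19 and 3.11-fold lower in P19 NTES7 compared with R1 (adjusted p = 2.02e-07 and 1.34e-07), with a 95% interval of log2 -0.41 to 0.062 for P19 NTES7 against P19. Perp, a membrane protein of desmosomes that p53 uses in death, read 26.4, 21.9 and 22.3 on the P19 arrays, 23.7, 22.03 and 22.004 on those of P19 NTES7, and 55.7, 56.5 and 56.6 on those of R1. The R1 arrays were almost equal and clear of the rest. R1 against P19 gave log2 1.26 ± 0.098 and P19 NTES7 against R1 -1.32 ± 0.098 (adjusted p = 3.06e-07 and 4.09e-07), and the interval for P19 NTES7 against P19 was log2 -0.27 to 0.16. Aen, a nuclease of apoptosis, gave 45.3, 41.5 and 28.6 on the P19 arrays, 35.3, 38.8 and 32.7 on those of P19 NTES7, and 89.2, 81.4 and 59.7 on those of R1. R1 was above the other lines on every array. The fold of R1 over P19, 2.01, was at the limit (adjusted p = 0.000516) and fell under it without P19 replicate 3 (log2 0.80), R1 replicate 1 (0.89) or R1 replicate 2 (0.95). P19 NTES7 was lower than R1 by 2.13-fold (adjusted p = 0.000378), and this fell under the limit without R1 replicate 1 (log2 -0.97). Apaf1 and Pidd1 were not called. Apaf1, the core of the apoptosome, had means of 74.6 ± 9.28 for P19, 72.8 ± 9.02 for P19 NTES7 and 134 ± 28.5 for R1 (SD, n = 3), and Pidd1, which activates caspase-2, of 32.05 ± 0.757 for P19, 27.5 ± 2.58 for P19 NTES7 and 51.5 ± 8.65 for R1. The difference of R1 from P19 was log2 0.83 ± 0.15 and 0.67 ± 0.12, both under the fold limit. Dram1, a lysosomal protein of autophagy, had means of 26.9 ± 0.562 for P19, 25.1 ± 1.74 for P19 NTES7 and 23.1 ± 2.17 for R1, and its 95% interval for R1 against P19 was log2 -0.44 to -0.0091.

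Among the DNA repair genes, Polk alone was called. Of 4 measured, 1 was called higher in R1 than in P19 and lower in P19 NTES7 compared with R1, and none was called in P19 NTES7 against P19, where the count at an unadjusted limma p under 0.05 was also 0, against 14.1% of all genes higher and 17.8% lower. Polk, a polymerase that copies past damaged bases, had intensities of 20.2, 19.4 and 24.5 on the P19 arrays, 22.9, 21.99 and 22.1 on those of P19 NTES7, and 50.9, 51.3 and 57.9 on those of R1. P19 and P19 NTES7 overlapped and R1 stood clear. Polk was 2.51-fold higher in R1 than in P19 and 2.39-fold lower in P19 NTES7 compared with R1 (adjusted p = 4.65e-07 and 1.61e-06). Xpc, the damage sensor of nucleotide excision repair, went the other way, with means of 55.7 ± 2.45 for P19, 51.5 ± 3.76 for P19 NTES7 and 37.1 ± 3.97 for R1 (SD, n = 3). Its R1 arrays were all below those of the other lines, by log2 -0.59 ± 0.10 from P19, which is under the fold limit (adjusted p = 0.000583). Ddb2, which finds damage from ultraviolet light, had means of 19.1 ± 4.78 for P19, 22.5 ± 3.26 for P19 NTES7 and 17.7 ± 2.48 for R1, and its 95% interval for R1 against P19 was log2 -0.45 to 0.26. For Rrm2b, a subunit of ribonucleotide reductase that supplies nucleotides for repair, the interval was log2 -0.30 to 0.17.

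Genes of metabolism, stress and secretion moved in both directions. Of 8 measured, 2 were called higher in R1 than in P19 (Ephx1 and Sesn2) and 2 lower (Sesn1 and Steap3). In P19 NTES7 against P19, 1 was called lower (Steap3), and in P19 NTES7 against R1, 1 was called higher (Sesn1) and 1 lower (Ephx1). Ephx1, the microsomal epoxide hydrolase of detoxification, had intensities of 19.97, 19.7 and 22.4 on the P19 arrays, 27.2, 27.4 and 28.2 on those of P19 NTES7, and 72.3, 73.5 and 114 on those of R1. The lines did not overlap, and R1 replicate 3 was above the other R1 arrays. R1 was higher than P19 by log2 2.03 ± 0.15, or 1.82 without that array, and P19 NTES7 minus R1 was -1.62 ± 0.15, or -1.40 without it (adjusted p = 1.70e-07 and 3.16e-06). The sestrins, which restrain the growth kinase mTORC1 and protect from oxidants, went separate ways. Sesn1 gave 70.8, 84.4 and 89.7 on the P19 arrays, 67.5, 60.2 and 59.8 on those of P19 NTES7, and 21.4, 21.3 and 26.4 on those of R1. R1 was the lowest line and P19 the highest, with no overlap. Sesn1 was 3.54-fold lower in R1 than in P19 and 2.72-fold higher in P19 NTES7 compared with R1 (adjusted p = 6.24e-08 and 1.20e-06). Sesn2 read 80.6, 86.2 and 70.4 on the P19 arrays, 97.5, 78.4 and 93.5 on those of P19 NTES7, and 183, 189.7 and 149 on those of R1. Its R1 arrays were above all others, and P19 and P19 NTES7 overlapped. Sesn2 was 2.20-fold higher in R1 than in P19 (adjusted p = 9.01e-06), and P19 NTES7 against R1 was 1.93-fold lower, under the fold limit. That call turned on single arrays, since P19 NTES7 was called lower than R1 without R1 replicate 3 (log2 -1.06) or P19 NTES7 replicate 1 (-1.01). Sesn3 had means of 103 ± 9.58 for P19, 95.8 ± 6.34 for P19 NTES7 and 71.5 ± 14.5 for R1 (SD, n = 3) and a 95% interval of log2 -0.83 to -0.25 for R1 against P19.

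Steap3 was lower than P19 in both pluripotent stem cell lines. Steap3, a reductase of iron uptake that also serves secretion of vesicles, had intensities of 63.04, 62.9 and 59.8 on the P19 arrays, 20.8, 25.7 and 31.4 on those of P19 NTES7, and 21.2, 20.8 and 20.3 on those of R1. Every P19 array was above every array of the other lines, which overlapped. Steap3 was 2.98-fold lower in R1 and 2.42-fold lower in P19 NTES7 compared with P19 (adjusted p = 4.50e-07 and 1.22e-05), and P19 NTES7 against R1 gave a 95% interval of log2 0.027 to 0.58. Ddit4, another inhibitor of mTORC1 under stress, was spread within P19 and P19 NTES7, at 45.1, 56.8 and 157 on the P19 arrays, 152, 77.7 and 135 on those of P19 NTES7, and 82.05, 79.9 and 69.3 on those of R1. P19 replicate 3 was the highest of the 9 arrays. Without it, P19 NTES7 was called higher than P19 (log2 1.21), and with it there was no call (log2 0.66 ± 0.36). Tigar, which diverts glucose from glycolysis, had means of 51.8 ± 8.92 for P19, 71.7 ± 3.22 for P19 NTES7 and 71.4 ± 2.59 for R1 (SD, n = 3), with a 95% interval of log2 -0.26 to 0.27 for P19 NTES7 against R1. Igfbp3, a secreted binder of insulin-like growth factors, had means of 31.1 ± 3.32 for P19, 39.5 ± 3.51 for P19 NTES7 and 61.2 ± 4.40 for R1. It was 1.97-fold higher in R1 than in P19, just under the limit, and was called without P19 replicate 1 (log2 1.01), P19 replicate 2 (1.04) or R1 replicate 2 (1.025).

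The presence of a half-site in the promoter window was set beside the calls as a description. Of the 10 genes with a half-site, 9 were measured, and all 9 were called in at least 1 comparison, 7 of them in R1 against P19. Ckap2 and Pml were called in P19 NTES7 against R1 only. Of the 21 measured genes with a window and no half-site, 8 were called, and of 8 genes with no window in the table, 5 were called. Over all measured genes, 9.38% were called in at least 1 comparison, and the share was 9.57% of 1338 with a half-site in their window and 8.96% of 14278 with a window and none. The half-site groups of p53 target genes are small, and no difference between them was tested. The genes with a half-site include both directions, since Sesn1 was lower in R1. Plk2, Eda2r, Phlda3 and Trp53inp1, which had the widest differences of R1 from P19, are not among them.

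The other genes of the p53 pathway, a list of 47 of which 43 were measured, were mostly not called. R1 against P19 gave 8 higher and 2 lower genes, with 33 not called, where 3.86% and 3.46% of all genes were called. P19 NTES7 against P19 gave 2 and 2, with 39 not called, against 1.45% and 1.38% of all genes. P19 NTES7 against R1 gave 1 and 9, with 33 not called, against 1.68% and 2.85%. The median log2 difference of the list for R1 against P19 was 0.20. Trp53 itself, the gene of p53, had intensities of 11.9, 12.2 and 10.1 on the P19 arrays, 11.1, 10.1 and 12.4 on those of P19 NTES7, and 527, 529 and 540.1 on those of R1. P19 and P19 NTES7 overlapped below the median of all probe sets, and R1 was 46.8-fold above P19 (log2 5.55 ± 0.11, adjusted p = 1.26e-12). The regulators Mdm2 and Mdm4 were highest in R1. Mdm2, the ligase that marks p53 for decay and is itself a target, had means of 84.6 ± 6.80 for P19, 121 ± 5.31 for P19 NTES7 and 244 ± 40.9 for R1, and Mdm4 of 122 ± 3.24 for P19, 127 ± 3.50 for P19 NTES7 and 296 ± 35.1 for R1 (SD, n = 3). Both were called higher in R1 than in P19 (log2 1.52 ± 0.12 and 1.27 ± 0.10) and lower in P19 NTES7 compared with R1 (log2 -1.002 ± 0.12 and -1.21 ± 0.10). Cdkn1a, the gene of the cell cycle inhibitor p21, gave 8.78, 9.46 and 9.82 on the P19 arrays, 47.7, 42.5 and 46.6 on those of P19 NTES7, and 136, 135 and 177 on those of R1. P19 NTES7 lay between the other lines with no overlap, at 4.87-fold above P19 and 3.25-fold below R1 (adjusted p = 2.55e-08 and 1.76e-07). The kinases Atm, Atr, Chek1 and Chek2, which activate p53 after damage, were not called in any comparison. The genes of caspase-8 and caspase-9 were called lower in R1, with log2 -1.10 ± 0.12 for Casp8 and -1.15 ± 0.13 for Casp9 against P19, and Casp8 was also lower in P19 NTES7 compared with P19 (log2 -1.02 ± 0.12).

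Markers of fibroblasts, the cells of the feeder layer, were measured beside the p53 target genes. Of 24 listed, 23 were measured, and 17 were called higher in R1 than in P19 and 13 higher in P19 NTES7 compared with P19, where 3.86% and 1.45% of all genes were. The lines did not overlap in the summed intensity of these markers. It was 1289 to 1350 for P19, 2469 to 3064 for P19 NTES7 and 3427 to 3909 for R1. Fn1 and Sparc were the brightest markers in every line and weigh most in this sum. Fn1 had means of 447 ± 22.1 for P19, 1065 ± 173 for P19 NTES7 and 1414 ± 117 for R1 (SD, n = 3). Sparc was instead highest in P19, at 534 ± 34.99, against 389 ± 10.5 for P19 NTES7 and 454 ± 10.6 for R1. Its arrays did not overlap between lines. The mean log2 intensity of the markers, in which each counts the same, did not overlap between lines either. Among the defining markers, Col1a1 had means of 49.2 ± 11.6 for P19, 297 ± 61.3 for P19 NTES7 and 342 ± 29.6 for R1, and Dcn of 8.45 ± 0.245 for P19, 80.6 ± 7.23 for P19 NTES7 and 232 ± 70.5 for R1 (SD, n = 3). In P19, 15 of the 23 were below the median of all probe sets. Between P19 NTES7 and R1, 3 markers were called lower (Dcn, Lum and Prrx1) and 0 higher. At an unadjusted limma p under 0.05, 14 of the 23 were lower and 0 higher, against 17.5% and 19.4% of all genes, and the arrays of 14 lay below those of R1 without overlap. Their part in the differences of the p53 target genes was not tested. In RNA from whole cultures, fewer cells with a transcript and less of it in each cell cannot be told apart.

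**Figure D4:**
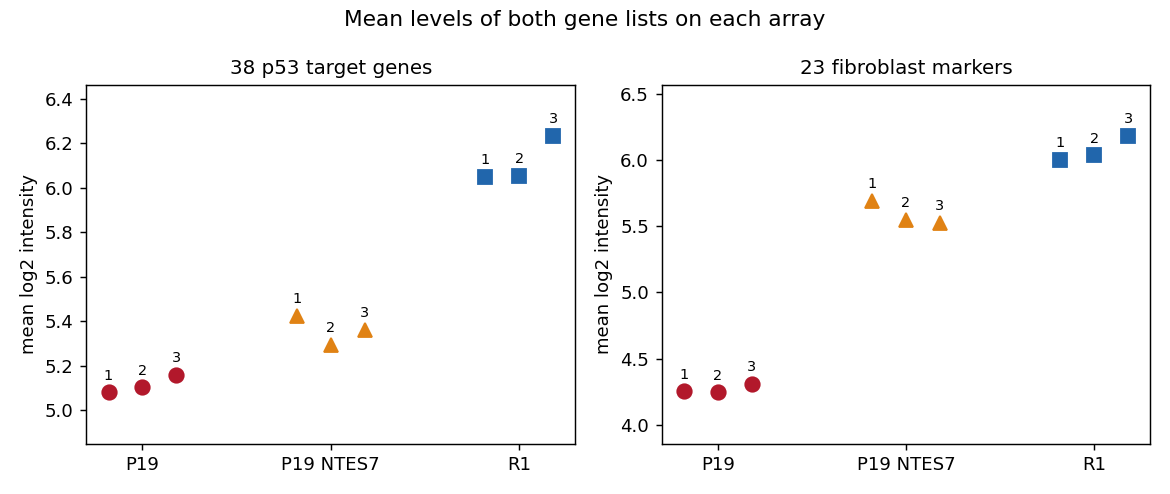
Mean log2 intensity (y axis) of the 38 p53 target genes (left) and of the 23 fibroblast markers (right) on each array, with replicate numbers beside the points, by cell line (x axis). On the left, P19 NTES7 (5.29 to 5.42) lies nearer to P19 (5.08 to 5.16) than to R1 (6.05 to 6.23), and on the right it lies nearer to R1.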

How the data were processed

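Total RNA of the 9 arrays was hybridised to the GeneChip Gene 1.0 ST Array. The authors normalized the probe sets with Robust Multichip Average (RMA, named in the submitters' processing notes too), and the deposited intensity values are on the linear scale. Their medians show no trace of the median scaling described in the methods. The fold changes and tests of the study's own lists were not used. A linear model with 1 mean per line was fitted to the log2 intensities of all 28853 probe sets in limma 3.58.1 under R 4.3.3. Adjusted p-values are limma's, by Benjamini-Hochberg across the whole array, and each log2 difference carries the standard error of that model. A gene was called at an adjusted p under 0.01 and a fold over 2. Array number, 3 a line, limits the precision.

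The platform annotation gave 21789 probe sets 1 symbol, 1621 several and 5443 none. The brightest probe set stood for a gene. Trp53 and Cdkn1a were named through identifiers that the study's supplementary list pairs with symbols. Members called in any comparison are given on every array, the others by line means, or by range where a line mean was below the median of all probe sets. Promoters came from RefSeq. The members, lists and alternatives were chosen with earlier results of these data known. On simulated arrays for R1 against P19, limma called 48 of 50 probe sets changed 2.5-fold and 0 unchanged ones.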

Additional observations from a re-analysis of the deposited data

How the results depend on the processing

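Under every alternative tried, the 38 genes kept their direction in each called difference. The count for R1 against P19 (18 higher) ranged from 12 with a pseudocount of 16 to 27 with no fold limit. That for P19 NTES7 against R1 (17 lower) ranged from 12 to 22 under the same settings. With the pseudocount, Gadd45g, Pmaip1, Perp, Aen, Polk and Sesn2 lost their call in R1 against P19. Other counts moved too. With no fold limit, 4 genes were lower in R1 against P19, 2 lower in P19 NTES7 against P19 and 2 higher in P19 NTES7 against R1, and with a fold over 1.5, 2 were lower in P19 NTES7 against P19. The 5 genes higher in P19 NTES7 against P19 became 3 with array medians centred, and 1 with a pseudocount of 16, which left 0 lower. Leaving out 1 array at a time gave 17 to 20 higher and 2 lower in R1 against P19, 3 (without P19 replicate 1) to 8 (without P19 replicate 3) higher and 1 lower in P19 NTES7 against P19, and 1 higher and 16 to 17 lower in P19 NTES7 against R1. Same-numbered arrays of different lines deviated with r from -0.223 to 0.0403. These values show no pairing by number, but 3 arrays a line are too few to settle it. With the replicate block the counts were 18 and 2, 5 and 1, and 1 and 16, and the lost call was Gadd45g in P19 NTES7 against R1 (limma adjusted p = 0.01003). Gadd45g, Aen, Trp53inp1 and Tnfrsf10b lie at the limits and were lost under several alternatives. Each gene has 1 probe set, so averaging over probe sets could change nothing. The cause of these shifts was not tested.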
